A study of Mus musculus with 6 samples.

Results

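The mouse zinc finger protein genes with numbered Zfp symbols were examined for 2 chromatin marks in blood progenitors that carry the leukemia fusion MLL-AF9. Members were all gene regions whose symbol was Zfp followed by a digit, which gave 361 of the 24012 regions counted. Another 2 numbered symbols were not analysed here. A member was called clustered when another member lay on the same chromosome within 100 kb, and single otherwise, which gave 200 clustered and 161 single members. Neither the symbol nor the position used any measured value.

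Chromatin immunoprecipitation with sequencing (ChIP-seq) measured di- and trimethylation of lysine 79 of histone H3 (H3K79me2 and H3K79me3). The cells were primary hematopoietic progenitors from mouse bone marrow, and all of them carried a retrovirus expressing MLL-AF9. The fusion was unmutated (MLL-AF9 WT), or it carried the substitution D544R or the substitution D546R. Each of these 3 genotypes gave 1 library with an H3K79me2 antibody (Abcam ab3594) and 1 with an H3K79me3 antibody (Diagenode), so the 6 groups had no replicates and no test between genotypes was possible. WT means the unmutated fusion and not normal cells, and no library of cells without the fusion was analysed here. No source used here gives the retroviral promoter or says whether cultures were pooled.

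Zfp genes mostly encode C2H2 zinc finger proteins, which bind DNA through arrays of zinc-coordinating fingers. Many belong to the KRAB family, whose members recruit the co-repressor TRIM28 (KAP1) and the H3K9 methyltransferase SETDB1 to retroelements and imprinted regions, and these genes lie in tandem clusters formed by local duplication. Others are CCCH-type RNA-binding proteins or single-copy promoter factors. H3K79 is methylated by DOT1L over the transcribed part of active genes, and AF9 is one of the proteins that bind DOT1L, so the fusion brings DOT1L to genes bound by its MLL portion, which binds CpG-rich DNA.

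Because that DNA contact makes the CpG content of the start sites a natural feature to show, the 250 bases before the annotated start are printed for 5 members on which the results below turn. They come from RefSeq on build GRCm38.p6, on the strand of the gene from 5′ to 3′, and capitals mark each CG dinucleotide. Zfp777 (chr6:48047795-48048044, minus strand) and Zfp746 (chr6:48086594-48086843, minus strand) are neighbours that were lower in H3K79me2 in D546R. Zfp955a (chr17:33255146-33255395, minus strand) was higher, Zfp91 (chr19:12796124-12796373, minus strand) had the most H3K79me2 per kb of all members in WT, and Zfp202 (chr9:40192066-40192315, plus strand) had the highest H3K79me3 ratio of D546R to WT among members with a mean of at least 100 normalised counts.
Zfp777: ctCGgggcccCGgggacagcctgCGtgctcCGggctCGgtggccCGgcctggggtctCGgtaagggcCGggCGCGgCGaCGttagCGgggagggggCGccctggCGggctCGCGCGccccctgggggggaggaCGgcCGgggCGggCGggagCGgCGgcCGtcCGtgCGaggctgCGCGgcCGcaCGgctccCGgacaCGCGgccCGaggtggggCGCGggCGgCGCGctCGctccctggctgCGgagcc
Zfp746: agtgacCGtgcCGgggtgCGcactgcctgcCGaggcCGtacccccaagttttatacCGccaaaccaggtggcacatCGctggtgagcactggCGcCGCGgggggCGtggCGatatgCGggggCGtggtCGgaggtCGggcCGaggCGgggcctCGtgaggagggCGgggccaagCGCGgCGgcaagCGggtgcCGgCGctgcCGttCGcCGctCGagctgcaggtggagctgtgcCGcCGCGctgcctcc
Zfp955a: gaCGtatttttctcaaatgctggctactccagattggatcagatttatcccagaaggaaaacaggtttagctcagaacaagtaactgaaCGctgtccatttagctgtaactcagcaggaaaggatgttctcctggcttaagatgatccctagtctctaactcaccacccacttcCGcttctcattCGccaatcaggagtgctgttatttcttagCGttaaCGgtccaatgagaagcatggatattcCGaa
Zfp91: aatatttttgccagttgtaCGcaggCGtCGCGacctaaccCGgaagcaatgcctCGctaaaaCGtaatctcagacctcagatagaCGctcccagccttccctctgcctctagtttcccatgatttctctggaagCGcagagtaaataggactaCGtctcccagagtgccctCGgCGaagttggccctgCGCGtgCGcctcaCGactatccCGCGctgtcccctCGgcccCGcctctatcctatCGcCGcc
Zfp202: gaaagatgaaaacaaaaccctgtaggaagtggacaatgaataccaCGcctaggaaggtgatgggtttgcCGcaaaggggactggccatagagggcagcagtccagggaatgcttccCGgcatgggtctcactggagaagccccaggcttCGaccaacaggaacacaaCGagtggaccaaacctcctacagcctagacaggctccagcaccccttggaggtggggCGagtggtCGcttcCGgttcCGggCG
Zfp777 held 42 CG dinucleotides in these 250 bases, Zfp746 held 33, Zfp91 22, Zfp202 10 and Zfp955a 7. The same 250 bases of Zfp955b, on the plus strand at chr17:33289294-33289543, were identical to those of Zfp955a at all 250 positions, whereas Zfp777 and Zfp746 aligned at 56.9% identity.

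A promoter of 300 bases (250 before and 50 after the start) was found by symbol for 293 of the 361 members. Of these, 164 (56.0%) had a CpG observed-over-expected ratio of at least 0.6, against 49.0% of the 16717 genes of the count table with a promoter. The share was 52.7% of clustered and 60.5% of single members. Motifs were searched as fixed letters on both strands. CCGGAAGT, the core that ETS factors bind, was in 9.90% of member promoters against 5.30% of the table's genes. ACTACAA, letters held within the longer ZNF143 motif, was in 6.48% against 3.71%, and the TATA box letters TATAAA in 6.14% against 12.9%. Among the 250 upstream bases, 6 pairs of members aligned at 85% identity or more, and all 12 members of these pairs were clustered and lay on the chromosome of their partner. Besides Zfp955a and Zfp955b (100%), these were Zfp758 and Zfp943 (93.8%), Zfp119a and Zfp959 (91.1%), Zfp442 and Zfp937 (88.2%), Zfp429 and Zfp456 (86.0%), and Zfp747 and Zfp764 (85.2%). Reads from copies this alike may be assigned to either gene or dropped, and no source used here says how such reads were handled.

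The members formed 50 clusters, of which 23 held 2 members, 11 held 3 or 4, and 16 held 5 or more. The 16 large clusters held 117 members, and the largest had 16 members on chromosome 13. Chromosome 7 held 85 members (68 clustered), chromosome 17 held 43 (33 clustered) and chromosome 13 held 35 (24 clustered). Around the 100 kb threshold, Zfp174 and Zfp263 (94.4 kb apart) and Zfp605 and Zfp932 (97.7 kb) fell just inside, while Zfp825 and Zfp72 (101.5 kb) and Zfp715 and Zfp936 (102.4 kb) fell just outside. The median member region was 17.4 kb long (16.0 kb clustered, 21.0 kb single), against 15.9 kb over all regions. Of the members, 74 (20.5%) overlapped another counted region, against 41.1% of all regions, and 20 of them overlapped another member.

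The libraries held 5993741 (WT), 4287873 (D544R) and 3558329 (D546R) counts in H3K79me2 and 5859821, 5207395 and 6652571 in H3K79me3. An estimate of reads per independent fragment was 3.26 to 4.78 in H3K79me2 and 8.12 to 18.6 in H3K79me3, where it was 9.73 in WT and 18.6 in D546R. Ratios are therefore given with a 95% fragment interval, which divides counts by that estimate and covers counting error only. Counts covered a region that, on plus-strand genes, began 2 kb before the start and ran to the transcript end; on 98.1% of the minus-strand genes that could be compared, the extra 2 kb lay past the transcript end instead. Levels are CPM (counts scaled to the library total) per kb of region, and are also given as multiples of the summed level of the 1122 olfactory receptor genes, which are silent in blood and serve as the background. By that measure, blood progenitor and myeloid markers had 1.07 to 8.06 times the background in H3K79me2 in WT (Ptprc 8.06, Spi1 6.94, Myb 6.75, Cebpa 6.05), and 4 markers of other tissues had 0.79 to 1.27 times. The labelled cell type and the markers did not conflict, although Myh6, a heart gene, was past the 2-fold rule in H3K79me3 (95 counts in WT against 236 in D546R), and other blood lineages were at 0.42 (Epor) to 1.62 times (Cd3e).

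The median Zfp member lay above the summed olfactory receptor level in H3K79me2 and beside it in H3K79me3. In WT the median olfactory receptor gene itself had 0.853 times that summed level in H3K79me2 and 0.659 times in H3K79me3. Among regions of 10 to 50 kb, the H3K79me3 median in WT was 0.930 CPM per kb for members and 0.818 for 19 olfactory receptor genes. In WT the median member had 0.877 CPM per kb in H3K79me2, 1.46 times the olfactory receptor level, against 0.653 (1.09 times) over all regions. In H3K79me3 the median member had 0.901, or 0.998 times the olfactory receptor level, against 0.787 (0.872 times) over all regions. At least 3 times the background was reached by 71 members (19.7%) in H3K79me2 against 14.6% of all regions, and by 15 members (4.16%) in H3K79me3 against 5.19%. In H3K79me3 the olfactory receptor genes themselves reached it in 6.95% of cases, so over all lengths that share does not separate members from background. Their median region, however, was only 2.945 kb long. Among regions of 10 to 50 kb, 10 of 271 members (3.69%) reached it, against 4.54% of all such regions. None of the 19 olfactory receptor genes of that length did, which are too few to settle the comparison. Of the members, 105 (29.1%) lay below the background level in H3K79me2, against 43.9% of all regions.

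Clustered and single members had much the same level. In WT the medians were 0.882 (clustered) and 0.877 (single) in H3K79me2, with quartiles of 0.588 to 1.41 and 0.534 to 1.72. In H3K79me3 they were 0.911 and 0.867, with quartiles of 0.603 to 1.41 and 0.549 to 1.39. The upper end differed more: 34 of 200 clustered and 37 of 161 single members reached 3 times the background in H3K79me2, and 4 and 11 in H3K79me3. Among regions of 10 to 50 kb, the H3K79me2 shares were 18.9% clustered and 18.6% single. The median lengths there still differed, at 17.1 kb clustered and 21.0 kb single. The H3K79me3 shares there were 2.37% and 5.88%. With members that overlap no other region, the order of the medians turned in both marks, with 0.888 for single members against 0.873 for clustered ones in H3K79me2, and 0.928 for single members against 0.893 in H3K79me3.

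**Figure D1:**
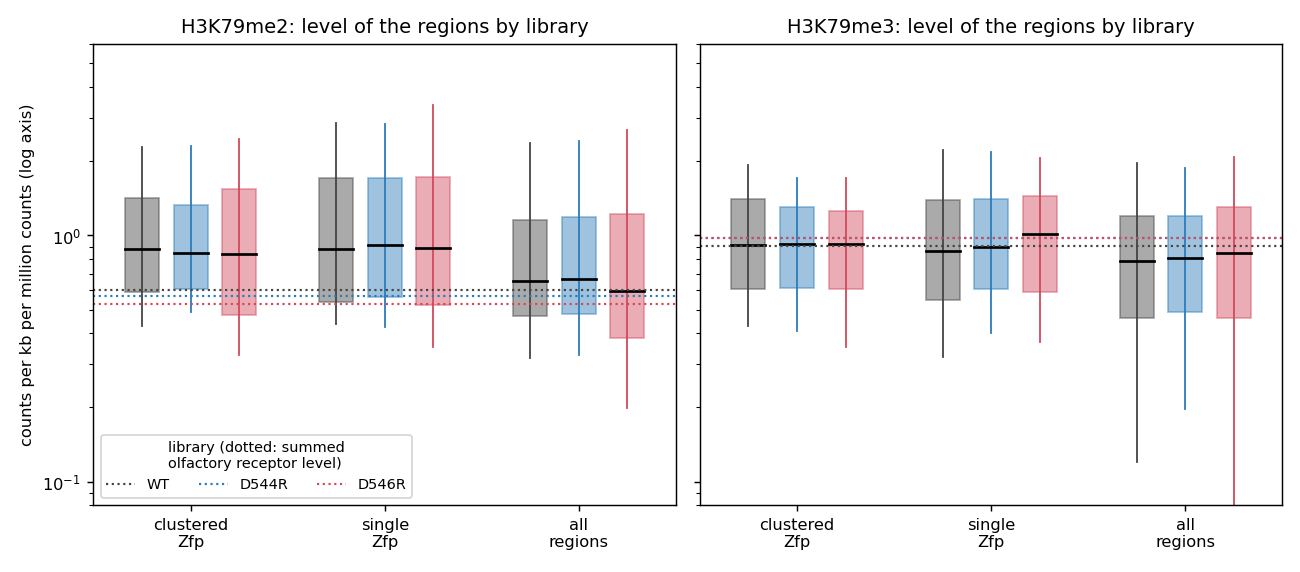
Level of clustered members, single members and all regions in each library, as CPM per kb on a log axis; the box spans the quartiles, the black line is the median, the thin line runs from the 10th to the 90th percentile, and dotted lines give the summed olfactory receptor level of each library. In H3K79me2 the member medians lie above the dotted lines (0.882 clustered and 0.877 single in WT, against 0.601), and in H3K79me3 they lie beside them.

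A larger share of members with CpG-rich promoters had high H3K79me2 levels, while their median was not higher. Of 164 members with a ratio of 0.6 or more, 42 (25.6%) reached 3 times the background in H3K79me2 in WT, against 16 of 129 (12.4%) below that ratio. The medians were 1.459 and 1.501 times the background, with quartiles of 0.956 to 3.08 and 0.915 to 2.20. In H3K79me3 the shares were 4.88% and 3.10%. These counts are a description of 1 library each.

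The members with the highest levels were mostly single-copy genes outside the KRAB clusters. Zfp91 (chr19:12839428-12870613, build mm9), an E3 ubiquitin ligase of the noncanonical NF-kB pathway, had 18.4 times the background in H3K79me2 in WT, 19.7 in D544R and 16.7 in D546R. Its readthrough region Zfp91Cntf shares nearly all of these reads (16.7 times in WT), and Zfp91 counts as clustered only because of it. Zfp217, a co-repressor-associated oncogene, had 12.8, 15.6 and 17.04 times in WT, D544R and D546R, so that in the D546R library it stood above Zfp91. Zfp36l2, which binds AU-rich mRNAs for decay, had 9.27, 8.77 and 9.37 times, and Zfp207, a spindle assembly factor, had 9.15, 10.4 and 13.1 times. Zfp146 (8.68 times in WT), in a chromosome 7 cluster of 14, was the clustered member with the next highest level after Zfp91 and its readthrough.

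The order was similar in H3K79me3 but the multiples were smaller. Zfp91 had 9.89 times the background in WT, 8.53 in D544R and 4.02 in D546R. Zfp207 had 6.17, 3.79 and 4.66 times, Zfp217 6.02, 4.74 and 5.38 times, and Zfp36l2 4.81, 4.18 and 1.46 times. Over the members with at least 30 counts in both marks, the median log2 of the H3K79me3 multiple over the H3K79me2 multiple was -0.66 in WT (303 members), -0.89 in D544R (282) and -1.12 in D546R (253). Over all regions it was -0.55, -0.76 and -0.87. The 2 antibodies and their libraries differ in depth and in reads per fragment, and their part in this was not tested.

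For the comparison between genotypes, counts were scaled by size factors within a mark, and the 2-fold rule asked for 3 things: a difference of 2-fold or more, a 95% counting interval that left out a ratio of 1, and 100 or more normalised counts on average in the 3 libraries of the mark. A log2 ratio of -1 means 2-fold lower. Scaling sets the bulk of regions to no change, so a change of the mark over the whole genome cannot be seen. Of the 361 members, 135 reached the minimum in H3K79me2 (61 of 200 clustered and 74 of 161 single) and 181 in H3K79me3 (90 clustered and 91 single).

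In H3K79me2, very few Zfp members differed between WT and either mutant. In D546R against WT, 2 of 135 members were lower (1.48%, against 0.865% of all 8905 regions at the minimum) and 2 were higher (1.48%, against 0.853%). The median log2 ratio was 0.11 over the members (0.14 clustered, 0.08 single) and 0.07 over all regions. In D544R against WT no member was past the rule in either direction, against 0.0112% of regions lower and 0.0337% higher, and the median was -0.03. Fragment intervals left these counts at 2 and 2, against 0.853% of regions in each direction. All 4 members past the rule in D546R were clustered, and they formed 2 neighbouring pairs.

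The lower pair lay at the end of a chromosome 6 cluster. Zfp777 (chr6:47972186-47998113), a KRAB zinc finger gene, had 482 counts in WT, 259 in D544R and 103 in D546R in H3K79me2. Its log2 ratio was -1.41 in D546R (-2.14 to -0.74) and -0.43 in D544R (-0.85 to 0.00). Zfp746 (chr6:48010393-48036592), which encodes the Parkin substrate PARIS, had 302, 241 and 82 counts, with log2 ratios of -1.06 (-1.91 to -0.29) and 0.14 (-0.34 to 0.63). In both, the D546R library was the low one and the D544R library stayed closer to WT. Zfp746 was also the member past the rule on the low side in D546R against D544R, at -1.20 (-2.06 to -0.44).

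The higher pair lay on chromosome 17 and had identical sequence before its start sites. Zfp955a (chr17:33374451-33392090) had 154, 141 and 187 counts in WT, D544R and D546R in H3K79me2, or 114, 145 and 245 normalised counts. Its log2 ratio in D546R was 1.09 (0.42 to 1.78). Zfp955b (chr17:33424488-33441634) had 156, 137 and 202 counts, with a log2 ratio of 1.19 (0.53 to 1.86). The WT counts of the pair differ by 2 reads, so they cannot be taken as 2 separate observations where reads are shared. In H3K79me3 the same regions were not past the rule, with 206, 124 and 169 counts (-0.54) and 203, 142 and 196 counts (-0.30).

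Between the mutants, 1 of 135 members was lower in D546R than in D544R in H3K79me2 (0.741%, against 0.876% of regions) and 4 were higher (2.96%, against 0.752%). The higher members were Zfp944 (86 counts in D544R, 153 in D546R, log2 ratio 1.17), Zfp330 (92 and 157, 1.12), Zfp830 (79 and 127, 1.03) and Zfp119a (76 and 122, 1.03). In WT they had 203, 166, 115 and 126 counts, and none was past the rule in either mutant against WT. These 4 are named because the count was small, after their values were seen. Zfp830 and Zfp944 overlap other regions, Cct6b and Zfp758.

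**Figure D2:**
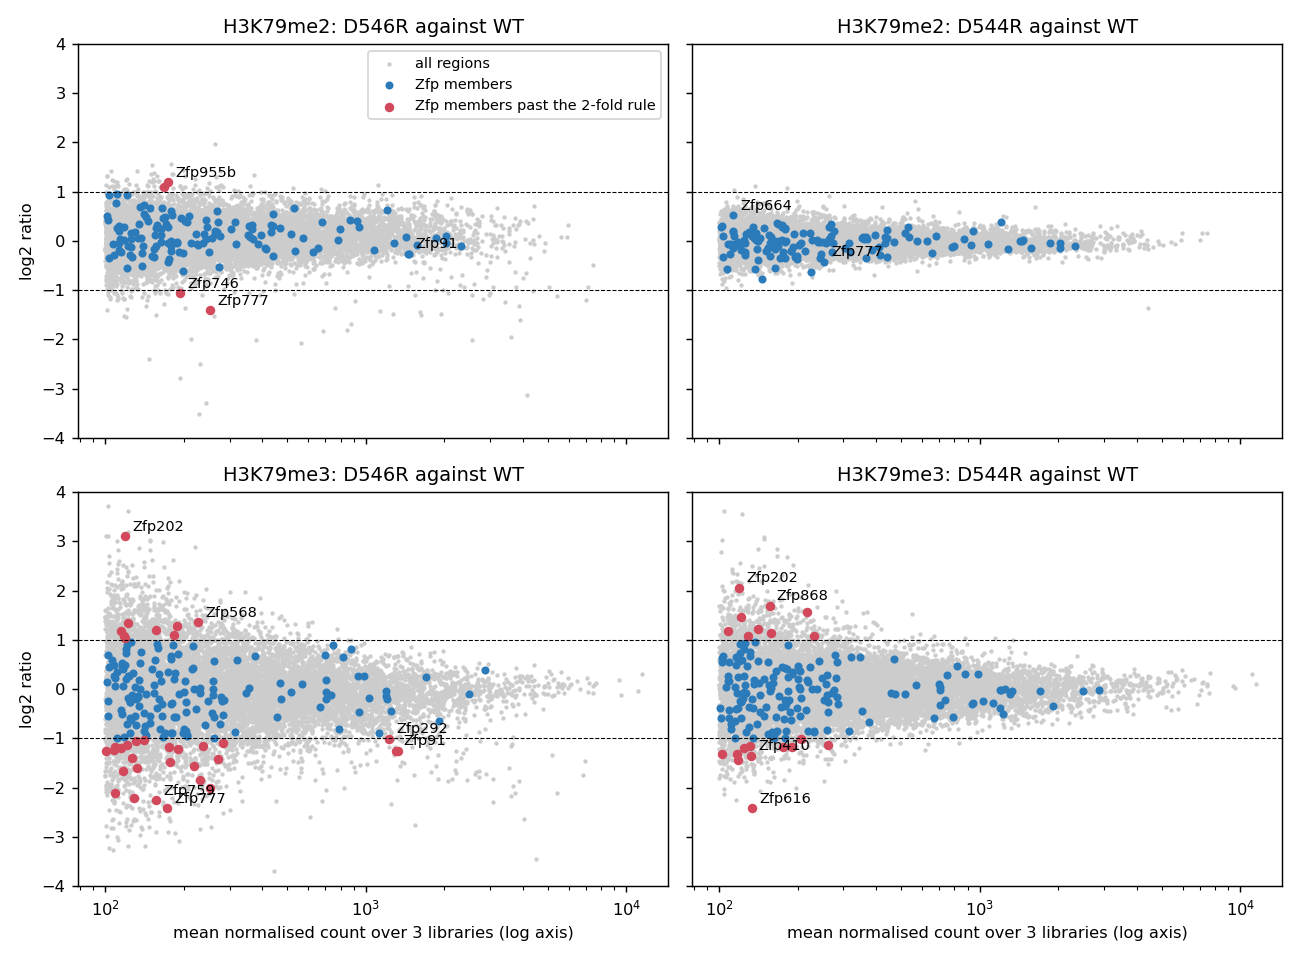
Log2 ratio of each mutant to WT against the mean normalised count (log axis) for regions at or above a mean of 100, in H3K79me2 (top) and H3K79me3 (bottom); grey points are all regions, blue points Zfp members and red points members past the 2-fold rule, and dashed lines mark 2-fold. The H3K79me2 panel of D544R holds no red point, and the H3K79me3 panel of D546R holds 35.

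In H3K79me3, more members were lower than higher in D546R. Of 181 members, 26 were lower than in WT (14.4%, against 8.91% of all 10824 regions) and 9 were higher (4.97%, against 6.95%). The median log2 ratio was -0.17 over the members and -0.03 over all regions. With fragment intervals in place of counting intervals, 14 were lower and 4 higher, against 5.55% and 4.26% of regions. By position, 14 of 90 clustered members were lower and 4 higher (median -0.22), and 12 of 91 single members were lower and 5 higher (median -0.14). Without members that overlap another region the medians were -0.10 (clustered) and -0.17 (single), so their order turned.

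The share past the rule varies with counts and length, so members were also set beside regions of like length or count. For regions of 10 to 50 kb, 24 of 150 members were lower (16.0%, against 12.5% of all such regions) and 9 were higher (6.0%, against 10.4%). At mean counts of 100 to 300, 23 of 145 members were lower (15.9%, against 12.1%) and 9 were higher (6.21%, against 11.3%). At 300 to 1000 counts, none of 23 members was lower or higher, against 4.81% and 2.28% of regions. Above 1000 counts, 3 of 13 were lower (23.1%, against 5.77% of 1247 regions), but 2 of the 3 are Zfp91 and its readthrough.

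Among the KRAB and other clustered members, the lowest were Zfp777, Zfp759, Zfp617 and Zfp212. Zfp777 had 258, 179 and 57 counts in WT, D544R and D546R in H3K79me3, a log2 ratio of -2.42 in D546R (-4.77 to -0.74). It was the only member lower in both marks among the 125 members at the minimum in both, where 35 of 8411 regions were lower in both. Zfp759, in the chromosome 13 cluster of 16, had 211, 183 and 52 counts (-2.26, -4.77 to -0.49). Zfp617 had 114, 214 and 29 counts (-2.20, -6.06 to 0.15), and Zfp212 had 169, 100 and 46 counts (-2.11, -4.86 to -0.21). In Zfp777 and Zfp759 the D544R count stayed near that of WT, and in Zfp617 it was above it.

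Single-copy members with known roles were also low in D546R. Zfp143, an activator bound at promoters and chromatin loop anchors, had 371, 183 and 123 counts in WT, D544R and D546R (-1.84, -3.30 to -0.64), and D544R lay between the others. Zfp367 had 353, 270 and 104 counts (-2.01, -3.62 to -0.72). Zfp410, an activator of Chd4, had 228, 79 and 89 counts (-1.60, -3.40 to -0.16), with both mutants low. Zfp36l2 had 153, 128 and 57 counts (-1.67, -4.07 to 0.12). In H3K79me2 the log2 ratios were 0.10 (Zfp143), -0.11 (Zfp36l2) and 0.43 (Zfp410), and Zfp367, with 520, 439 and 366 counts, was not past the rule.

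The lower members with the most counts had the narrowest intervals. In H3K79me3, Zfp91 had 1630 (WT), 1354 (D544R) and 814 (D546R) counts, a log2 ratio of -1.25 in D546R (-1.77 to -0.76) and -0.10 in D544R (-0.41 to 0.22). Zfp292 (chr4:34748358-34830197), a large zinc finger transcription factor, had 1643, 1033 and 971 counts, with -1.01 in D546R (-1.49 to -0.55) and -0.50 in D544R (-0.84 to -0.16). For Zfp91 the D544R library stayed with WT, and for Zfp292 it lay between the others. In H3K79me2 their log2 ratios in D546R were -0.26 and 0.06. Lpxn, 0.48 kb from Zfp91 and a blood cell adaptor gene, had -0.62 in H3K79me3 and was past the rule in H3K79me2, at -1.02.

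The higher members in D546R were led by Zfp202 (chr9:39997900-40021189), a SCAN and KRAB factor of lipid metabolism genes. It had 25 counts in WT, 94 in D544R and 261 in D546R in H3K79me3, or 0.20, 0.79 and 1.73 times the background. The log2 ratio was 3.11 (1.19 to 5.82), and it rests on a WT value below background. In H3K79me2 it had 124, 116 and 61 counts, with the D546R library the lowest in raw counts. Zfp568, a KRAB repressor of a placental Igf2 promoter, had 146, 129 and 448 counts (1.36, 0.38 to 2.40), and Zfp64, which binds the Mll promoter, had 136, 78 and 394 counts (1.28, 0.24 to 2.37). The others were Zfp597 (1.33), Zfp868 (1.21), Zfp933 (1.17), Zfp715 (1.11), Zfp433 (1.08) and Zfp142 (1.03), and of these only Zfp715 had a fragment interval above 0 (0.01 to 2.25).

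**Figure D3:**
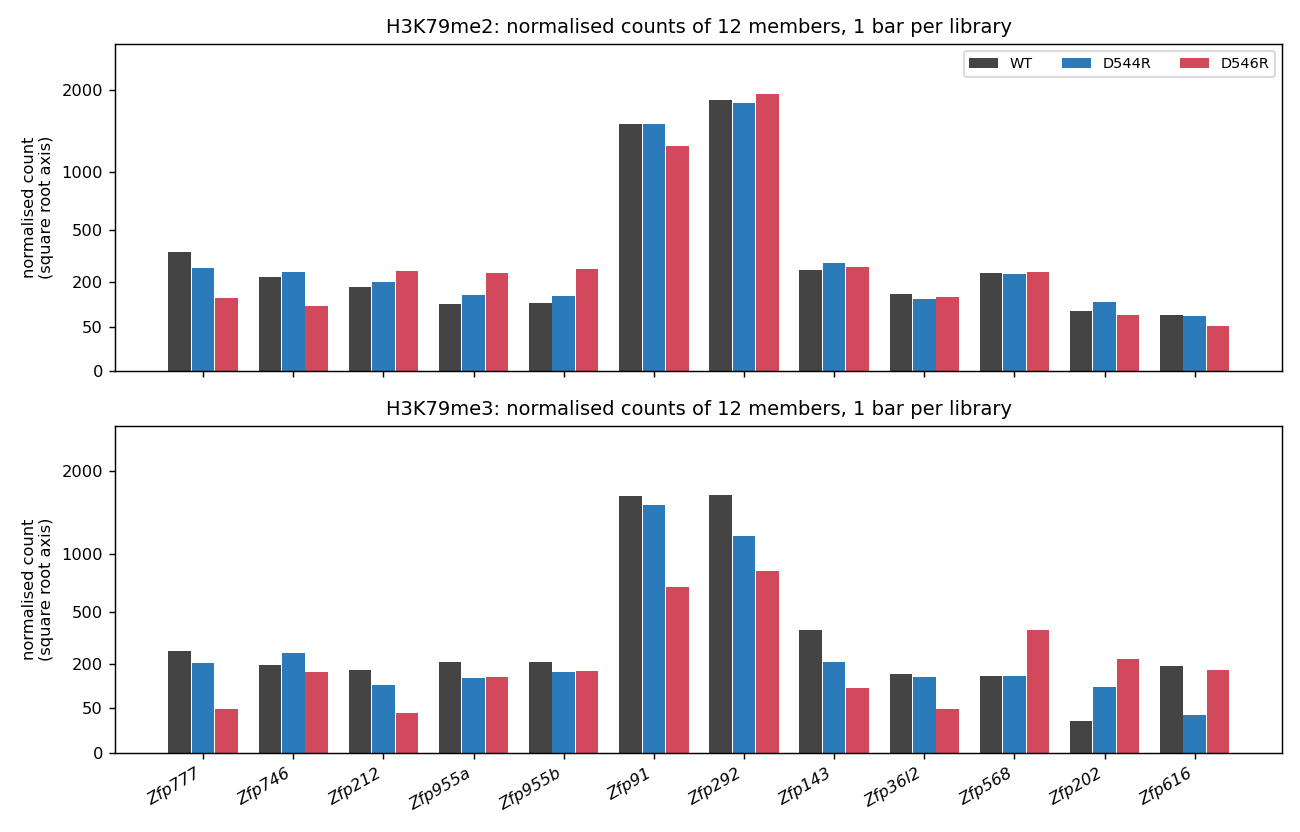
Normalised counts of 12 members in the 3 libraries of each mark, 1 bar per library, on a square root axis that starts at 0. In H3K79me3 the D546R bar is the lowest for Zfp777, Zfp746, Zfp212, Zfp91, Zfp292, Zfp143 and Zfp36l2 and the highest for Zfp568 and Zfp202. Of these, Zfp746 is not past the 2-fold rule in H3K79me3. In H3K79me2 only Zfp777, Zfp746, Zfp955a and Zfp955b are past the rule in D546R against WT.

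In D544R against WT in H3K79me3, 11 of 181 members were lower (6.08%, against 3.02% of regions) and 9 were higher (4.97%, against 4.34%), with a median of -0.06. With fragment intervals 6 were lower and 7 higher, against 1.66% and 2.91%. Beside regions of like length (10 to 50 kb), 7.33% of 150 members were lower, against 4.83%, and 6.0% were higher, against 6.74%. At mean counts of 100 to 300 the shares were 7.59% lower, against 5.31%, and 6.21% higher, against 7.34%. The lowest was Zfp616, with 188 counts in WT, 31 in D544R and 204 in D546R (-2.41, -4.50 to -0.82), where only the D544R library was low. Next came Zfp456 (-1.44), Zfp410 (-1.35, -2.60 to -0.22), Zfp345 (-1.32), Zfp865 (-1.31), Zfp455 (-1.19), Zfp318 (-1.18), which controls the splicing that makes IgD, and Zfp960 (-1.17). The highest were Zfp202 (2.06), Zfp868 with 70, 202 and 193 counts (1.69, 0.46 to 3.13), Zfp850 with 110, 292 and 241 counts (1.58, 0.58 to 2.69), Zfp518b (1.46), Zfp523 (1.22), Zfp335 (1.18), Zfp607 (1.14) and Zfp560 (1.09). Zfp410, Zfp318, Zfp960 and Zfp322a were lower, and Zfp202 and Zfp868 higher, in both mutants, but the comparisons share the WT library, so its own error would place a member on the same side in both.

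Between the mutants in H3K79me3, 23 members were lower in D546R than in D544R (12.7%, against 8.3% of regions) and 17 were higher (9.39%, against 5.78%). Zfp617 was lowest at -3.28 (-7.06 to -1.11) and Zfp616 highest at 2.28 (0.51 to 4.46). Zfp777 was at -2.06 (-4.43 to -0.35) and Zfp91 at -1.16 (-1.67 to -0.67). For Zfp616, Zfp777 and Zfp91 1 mutant lay near WT and the other away from it, and for Zfp617 the mutants lay on opposite sides of WT. With fragment intervals, 15 were lower (against 5.16%) and 11 higher (against 3.77%).

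Summed over a cluster, counts give narrower intervals than single members. The chromosome 6 cluster (chr6:47767264-48036592) holds Zfp786, Zfp398, Zfp282, Zfp212, Zfp783, Zfp956, Zfp777 and Zfp746. Its sum was 1757, 1123 and 733 counts in WT, D544R and D546R in H3K79me2, a log2 ratio of -0.44 in D546R (-0.72 to -0.17) and -0.18 in D544R (-0.38 to 0.03). In H3K79me3 the sum was 1207, 1113 and 883, with -0.70 (-1.22 to -0.21) and 0.06 (-0.31 to 0.42). It was the only one of the 16 large clusters whose interval lay below 0 in D546R in both marks. These sums include members past the rule on their own. From WT to D546R, H3K79me2 counts went from 482 to 103 in Zfp777 and from 302 to 82 in Zfp746. H3K79me3 counts went from 258 to 57 in Zfp777, from 169 to 46 in Zfp212 and from 136 to 67 in Zfp786. The sums therefore do not show a change shared by all members.

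In each mark 6 of the 8 members had a log2 ratio below 0 in D546R, but their sizes differed. In H3K79me2, Zfp777 and Zfp746 were lower, while Zfp282 (-0.54), Zfp398 (-0.06) and Zfp212 (0.50) were not, and Zfp783 (-1.16), Zfp786 (-0.81) and Zfp956 (0.52) did not reach the minimum. In H3K79me3, Zfp777, Zfp212 and Zfp786 (-1.27) were lower, while Zfp282 (-0.75), Zfp746 (-0.26), Zfp398 (0.35) and Zfp956 (0.58) were not, and Zfp783, with 66 counts in WT and 39 in D546R, did not reach the minimum. Pdia4 borders the cluster at the Zfp786 end, 208.7 kb from Zfp777, and had 0.18 in H3K79me2 and 0.12 in H3K79me3.

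**Figure D4:**
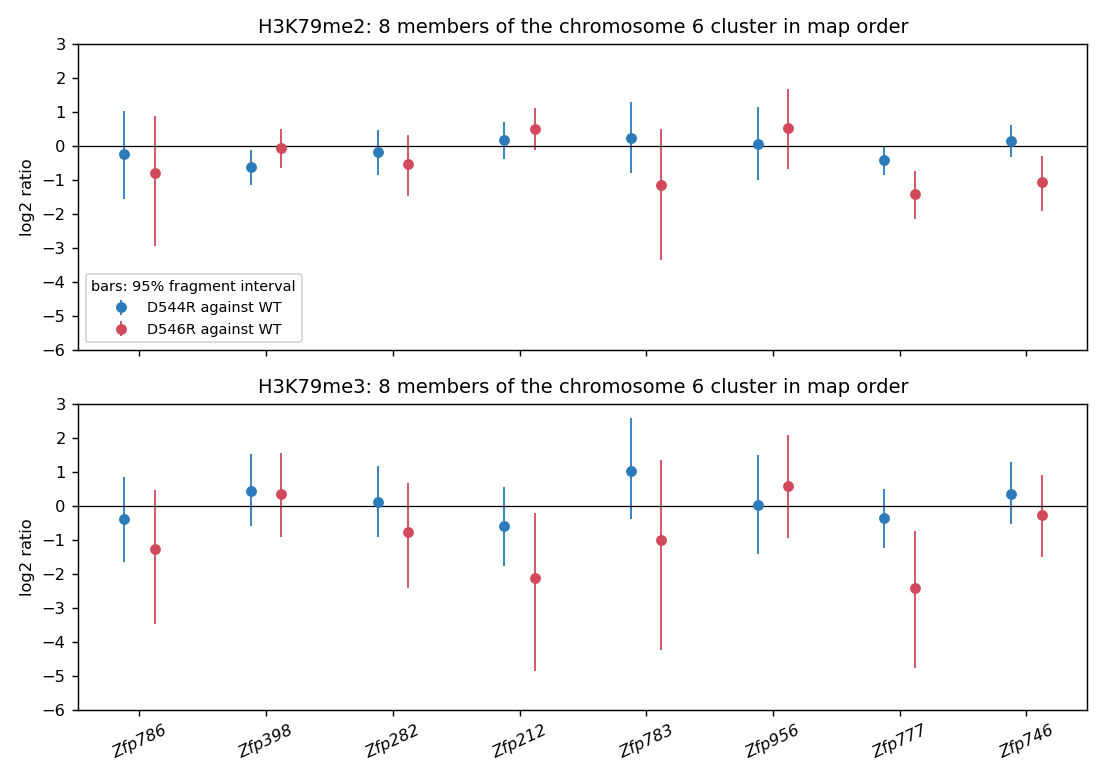
Log2 ratio to WT of the 8 members of the chromosome 6 cluster in map order, D544R in blue and D546R in red, with 95% fragment intervals, in H3K79me2 (top) and H3K79me3 (bottom). Zfp777 lies at -1.41 and -2.42 in D546R, and Zfp398 beside 0 in H3K79me2 at -0.06.

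Elsewhere no large cluster had intervals on the same side of 0 in both marks in the same mutant. In H3K79me2, the chromosome 17 cluster from Zfp871 to Zfp563 (8 members) had 0.34 in D546R (0.10 to 0.58), and the one from Zfp677 to Zfp948 (6 members) had -0.29 in D544R (-0.57 to -0.01). In H3K79me3 these clusters had -0.42 (-0.86 to 0.01) and -0.63 (-1.21 to -0.08) in D546R, and the first had -0.72 in D544R (-1.12 to -0.34). The chromosome 7 cluster from Zfp60 to Zfp850 had 0.81 in D544R (0.31 to 1.32) and the chromosome 9 cluster from Zfp560 to Zfp846 had 0.49 (0.08 to 0.92). The largest cluster, with 16 members on chromosome 13, had 0.07 (-0.17 to 0.30) in H3K79me2 and -0.21 (-0.58 to 0.15) in H3K79me3 in D546R.

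**Figure D5:**
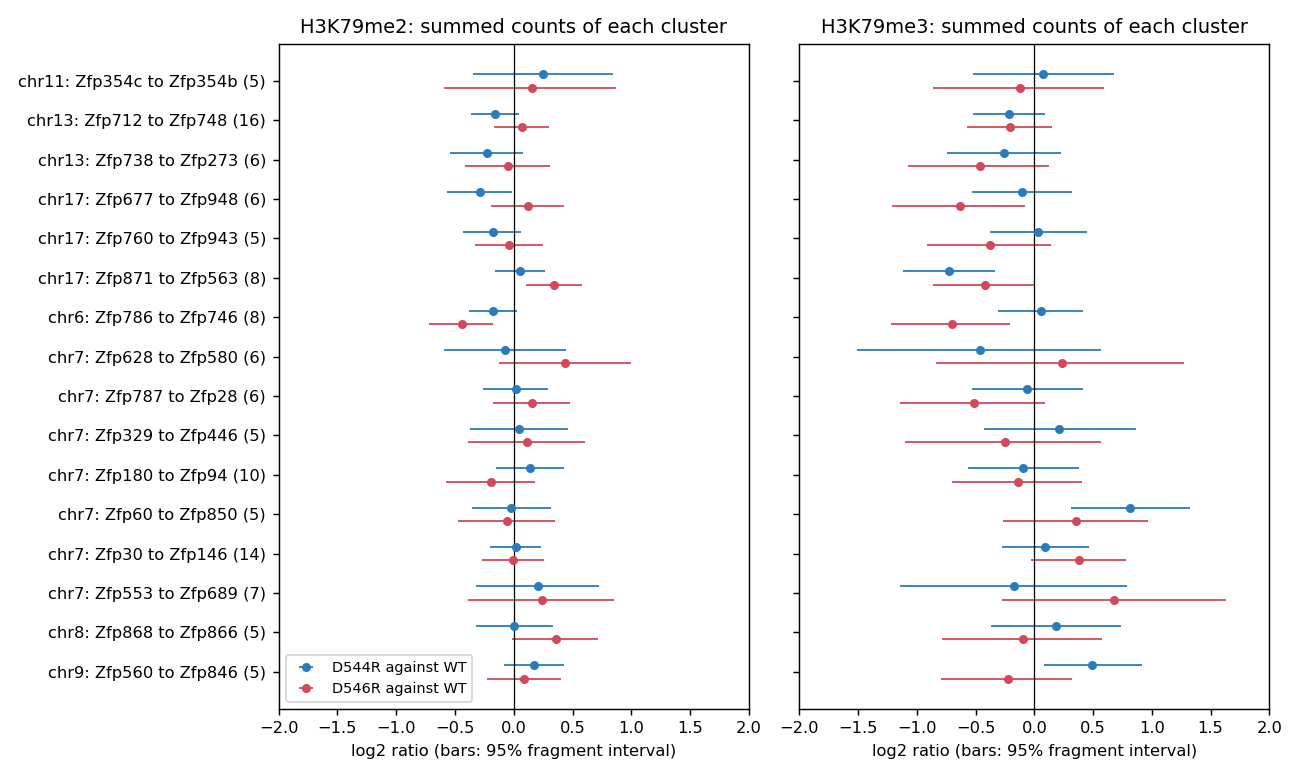
Log2 ratio of the summed counts of the 16 clusters of 5 or more members, labelled by chromosome, first and last member and number of members, with 95% fragment intervals; D544R is blue and D546R red. The chromosome 6 cluster is at -0.44 in H3K79me2 and -0.70 in H3K79me3 in D546R, while most other intervals include 0.

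By role, the 8 promoter and chromatin factors had a median of 4.15 times the background in H3K79me2 in WT, and the 5 pluripotency and development factors 0.72 times. Of the promoter and chromatin factors at the minimum in H3K79me3, 2 of 6 were lower in D546R (Zfp143 and Zfp410) and none was higher, beside 8.91% and 6.95% of all regions. Zfp148 had 2327, 1625 and 1778 counts (-0.64) without passing 2-fold. Zfp281, a pluripotency factor, had 120, 85 and 27 counts but did not reach the minimum. Of the 8 blood and leukemia related members, all at the minimum, 3 were lower in D546R (Zfp91, Zfp292 and Zfp318) and none was higher, beside the same background shares of 8.91% and 6.95%. The role lists were chosen with earlier results of these data known, so their shares are not an independent comparison with all regions. Zfp521 and Zfp423, partners of EBF1, stayed at 0.93 and 0.82 times the background in H3K79me2 in WT, with H3K79me3 ratios of -0.14 and 0.27.

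Of 7 KRAB factors of retroelements and imprints, 6 reached the minimum in H3K79me3 and Zfp568 alone was past the rule in D546R. It was higher than in WT, beside 8.91% of all regions lower and 6.95% higher. Zfp445, an imprint regulator, had 4.88 times the background in H3K79me2 in WT and 243, 262 and 265 counts in H3K79me3. Zfp57, the other imprint regulator, had 0.84 times and 93, 128 and 76 counts. Zfp809, which silences murine leukemia virus in embryonic stem cells, had 3.79 times and 139, 146 and 204 counts. Neither these nor Zfp932 (-0.69), Zfp708 (0.18) and Zfp819 (0.15, below the minimum) were past the rule in D546R against WT. In D546R against D544R in H3K79me3, Zfp57 was lower (-1.17, -3.19 to 0.45). Zfp708 (1.17, -0.27 to 2.68) and Zfp568 (1.37, 0.40 to 2.39) were higher. These are 1 lower and 2 higher of 6, beside 8.3% and 5.78% of all regions.

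Of the 4 CCCH mRNA decay genes, only Zfp36l2 reached the minimum. Zfp36, which encodes tristetraprolin, had 62, 54 and 42 counts in H3K79me2 and 5, 44 and 112 in H3K79me3 in WT, D544R and D546R, with the WT library at 0.21 times the background in H3K79me3. Zfp36l1 had 45, 30 and 36 counts, and 52, 53 and 120. In H3K79me3, Zfp36l3 went from 15 counts (WT) to 5 (D544R) and 0 (D546R). A count of 0 allows up to 3 fragments, at an estimated 18.6 reads per fragment in D546R. The fragment interval of its log2 ratio to WT reached 4.00, so a fall was not resolved. In the list of RNA, ribosome and ubiquitin factors, Zfp598, Zfp622, Zfp106, Zfp207 and Zfp451 had 2.84 to 9.15 times the background in H3K79me2 in WT. None was past the rule in either mutant against WT in either mark, but Zfp598 did not reach the minimum in H3K79me3.

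The proteins that KRAB factors recruit were read from a list of 14 genes, 13 of them in the table. This list was also chosen with earlier results of these data known. In H3K79me2, 12 reached the minimum and none was past the rule in D546R or D544R against WT. In H3K79me3, 3 of 11 were lower in D546R and none was higher, against 8.91% and 6.95% of all regions, with a median of -0.38 beside -0.03 over all regions. Cbx1 (-1.70, -3.04 to -0.57) and Setdb1 (-1.52, -2.77 to -0.44) were the lowest, and Cbx3, with 335, 375 and 199 counts, was just past 2-fold. The fragment interval of Cbx3 included 0 (-2.15 to 0.02). Cbx1, Cbx3 and Cbx5 encode HP1 proteins, and these genes did not move together. Cbx5 was not past the rule in D546R and lay on the other side of WT (0.20, -1.02 to 1.38). In D544R, Chd4 was lower (-1.43, -2.79 to -0.22), and the list's median was -0.52.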

How the data were processed

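ChIP-seq counts for H3K79me2 and H3K79me3 were used from 6 libraries, 1 per genotype and mark. The authors deposited raw counts of reads in a region per gene, which per the file headers extends 2 kb upstream of the TSS. The submitters' processing notes name mm9, Bowtie, bedtools and DESeq; no source used here gives a role or version for them, or says whether duplicates were removed. Per the labels, chromatin was sheared to about 300 bp and several sequencing runs were combined. No input or spike-in was used here. Strand was taken from RefSeq (GRCm38.p6): of 4112 minus-strand genes compared, 4035 (98.1%) had the 2 kb on the low-coordinate side, which is the transcript end, and none had it at the start. For minus-strand members (153 of 293 with a strand) the counts therefore leave out the sequence before the start, while the printed promoters lie there.

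Size factors were the median of ratios within a mark (H3K79me2: WT 1.35, D544R 0.972, D546R 0.764; H3K79me3: WT 0.982, D544R 0.872, D546R 1.17). Log2 ratios used a prior count of 0.5, and 95% intervals were exact conditional binomial (Clopper-Pearson). Reads per fragment were estimated from the share of 4591 autosomal regions under 5 kb with no count. The ratio code was tested on simulated data. Python 3.11.15, numpy 2.4.6, scipy 1.17.1, pandas 2.3.3, matplotlib 3.10.9, R 4.3.3 and edgeR 4.0.16 were used. edgeR served only for TMM factors.

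The rule for named genes took the 8 lowest and 8 highest members past the 2-fold rule in each comparison of a mutant with WT, the members of 6 role lists, the extremes of large clusters and the 5 members with the highest level. Of the cluster extremes, those of the clusters described are printed. The members and lists were chosen with earlier results of these data known. Alternatives were total counts, TMM factors, olfactory receptor genes as the reference, a minimum mean of 300 or none, fragment intervals, other prior counts, members without overlaps, and other definitions of clusters and lengths.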

Additional observations from a re-analysis of the deposited data

How the results depend on the processing

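No paired analysis was possible because each genotype and mark had 1 library. Over 12 counts of members past the rule (2 marks, 3 comparisons, 2 directions), TMM factors kept all within 1.5 times of the values reported, total counts and the olfactory receptor reference 10 each, members without overlaps 11 and fragment intervals 7. The olfactory receptor reference moved the median of all regions by 0.12 in H3K79me2 (D546R against WT) and by -0.12 in H3K79me3 (D544R against WT). In the first of these, 1 of 136 members was then lower and 5 were higher, against 0.550% and 2.04% of all regions. The H3K79me2 median of the members in D544R against WT turned from -0.03 to 0.06 under that reference. With total counts, D546R against D544R in H3K79me2 gave 2 lower and 2 higher, against 1.23% and 0.427% of all regions. Without overlapping members it gave 2 higher. With a minimum mean of 300, H3K79me2 gave 0 lower and 0 higher in D546R against WT and against D544R. There H3K79me3 gave 3 lower and 0 higher in D546R against WT, 0 and 0 in D544R against WT, and 2 and 1 in D546R against D544R, with fewer members tested. With no minimum, H3K79me2 gave 28 lower and 8 higher (D546R against WT), 2 and 3 (D544R against WT) and 26 and 13 (D546R against D544R), and H3K79me3 gave 65 and 56, 41 and 47, and 69 and 58. Shares over all regions are not given here for these minimum settings or for members without overlaps. Those counts are therefore not read as particular to the members. Fragment intervals left, in H3K79me3, 14 lower and 4 higher (D546R against WT), 6 lower in D544R against WT, and 15 lower and 11 higher (D546R against D544R). The clustered H3K79me2 median in WT was 0.925 with neighbours within 50 kb, 0.923 within 250 kb, 0.925 for clusters of 3 or more and 0.922 for regions of 10 to 50 kb, and the single median was 0.853 within 50 kb and 0.845 within 250 kb. In H3K79me3 the clustered median was 0.984 within 50 kb and 0.990 for 10 to 50 kb, and the single median 0.820 within 50 kb, 0.801 within 250 kb, 0.928 without overlaps and 0.904 for 10 to 50 kb. The cause of these shifts was not tested. With 8.12 to 18.6 reads per fragment, H3K79me3 ratios of members below about 300 counts carry wide intervals.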

Other observations

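Other zinc finger families were measured in the same libraries. The 41 Zbtb genes, which join zinc fingers to a BTB domain, had a median of 1.90 times the olfactory receptor level in H3K79me2 in WT, against 1.46 for the Zfp members, and 1.08 times in H3K79me3. The 28 Zscan and Zkscan genes, which carry a SCAN domain, had 1.47 and 0.992 times. In H3K79me3 in D546R against WT, 5 of 23 Zbtb genes at the minimum mean count were lower and 1 higher (median -0.13), and 1 of 8 Zscan and Zkscan genes was lower (median 0.00), against 8.91% of all regions lower and 6.95% higher.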
